A study of Mus musculus with 6 samples.

Results

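Heat shock proteins, J-proteins and chaperonins are the molecular chaperones described here, in 2 fractions of mouse hematopoietic stem cells. Their genes were picked by name: every probe set annotated to a single symbol beginning with Hspa, Hspb, Hspd, Hspe, Hsph, Hsp90, Dnaj, or Bag or Cct followed by a number. The array carries 209 such probe sets for 87 genes. Of these, 130 probe sets for 66 genes exceeded log2 4 on 3 or more of the 6 arrays, the level required for testing, against 19613 probe sets and 9460 genes tested on the whole array. The stem cells came from the bone marrow of male C57Bl/6 (CD45.1) mice aged 10 weeks. They were sorted as Lineage-, Sca-1+ and c-Kit+ cells from the lower part (Lower-SP) or the upper part (Upper-SP) of the side population, a flow cytometry gate on cells that expel a DNA dye. No treatment or genetic change separates the fractions. Each fraction has 3 arrays, 1 for each pool of mice, so a value averages over a sorted population pooled from several animals. Precision is limited by the small number of arrays.

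Chaperones bind unfolded proteins and help them fold. HSP70 proteins do so in a cycle of ATP hydrolysis that J-proteins start, by bringing the client protein and stimulating the ATPase, and that nucleotide exchange factors such as the BAG proteins reset. HSP90 takes over many kinases and receptors late in folding, the ring-shaped chaperonins fold proteins inside a closed chamber, and small heat shock proteins hold unfolded proteins until HSP70 can act. In blood stem cells, which make protein slowly, the control of protein folding is known to matter for self-renewal.

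Values are log2 expression, as the authors normalized them with GCRMA. Each gene is represented by the brightest of its tested probe sets, averaged over all arrays, and each difference is Lower-SP minus Upper-SP. Group means carry ± SD (n = 3). Adjusted p-values come from limma, with Benjamini-Hochberg adjustment across every tested probe set. A gene passed at an adjusted p under 0.05. Correlations between arrays were 0.952 to 0.991 inside each fraction and 0.911 to 0.938 across them. Each array had 19317 to 19666 probe sets over log2 4. All 9 annotated stem and progenitor cell markers of 11 listed, Kit and Procr among them, lay above the level for testing. Procr, Slamf1, Mecom, Hlf and Meis1 did not pass (adjusted p = 0.14 to 0.99 in limma). The other 4 were lower in Lower-SP: Flt3 (-2.22), Cd34 (-1.41), Abcg2 (-1.04) and Kit (-0.92). The part of this difference in the chaperone calls was not tested. Of the markers of other lineages, 2 of 7 erythroid (Tfrc and Slc4a1), 2 of 5 B cell (Cd79b and Ms4a1), 1 of 5 T and NK cell (Nkg7), 2 of 5 macrophage and dendritic cell (Csf1r and C1qa) and 1 of 6 endothelial and stromal markers (Cxcl12) were tested. Csf1r differed by 1.06 and Nkg7 differed by -1.14, both passing, while Gata1, Klf1, Pax5, Cd79a, Cd3e and Cd3g lay under the level on every array. Neutrophil markers differed between arrays and among themselves, and 8 of 13 annotated were tested. S100a8 (4.17), S100a9 (3.90), Lcn2 (3.84) and Chil3 (4.65) passed as higher in Lower-SP, and Prtn3 (-0.60) as lower. Ngp, Camp and Ltf did not pass, and Elane lay under the level everywhere (highest 2.21). The mean over all 13, tested or not, in Lower-SP replicates 1 to 3 was 7.78, 7.31 and 5.05, beside 4.80, 4.98 and 4.18 in Upper-SP. Calls are also given without Lower-SP replicates 1 and 2.

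Few chaperone genes differed between the fractions, and those that did went both ways. Of the 66 genes, 7 were lower and 4 higher in Lower-SP. The lower ones were the J-proteins Dnajc27, Dnajb2 and Dnajb11, the chaperonin subunits Cct5, Cct8 and Cct2, and the mitochondrial chaperonin Hspd1. The J-proteins Dnajc3, Dnajc21 and Dnajb14 and the HSP90 gene Hsp90aa1 were higher. As shares of the chaperone genes these are 10.6% lower and 6.06% higher, 16.7% in all. Over all 9460 genes 20.7% were lower, 7.05% higher and 27.7% called in either direction. At the level of probe sets 14 of 130 chaperone probe sets were lower and 8 higher (10.8% and 6.15%), against 17.5% and 10.7% of all probe sets. The Lower-SP and Upper-SP values did not overlap in 22 of the 66 genes (33.3%), 13 of them lower in Lower-SP, against 45.7% of all genes.

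**Figure D1:**
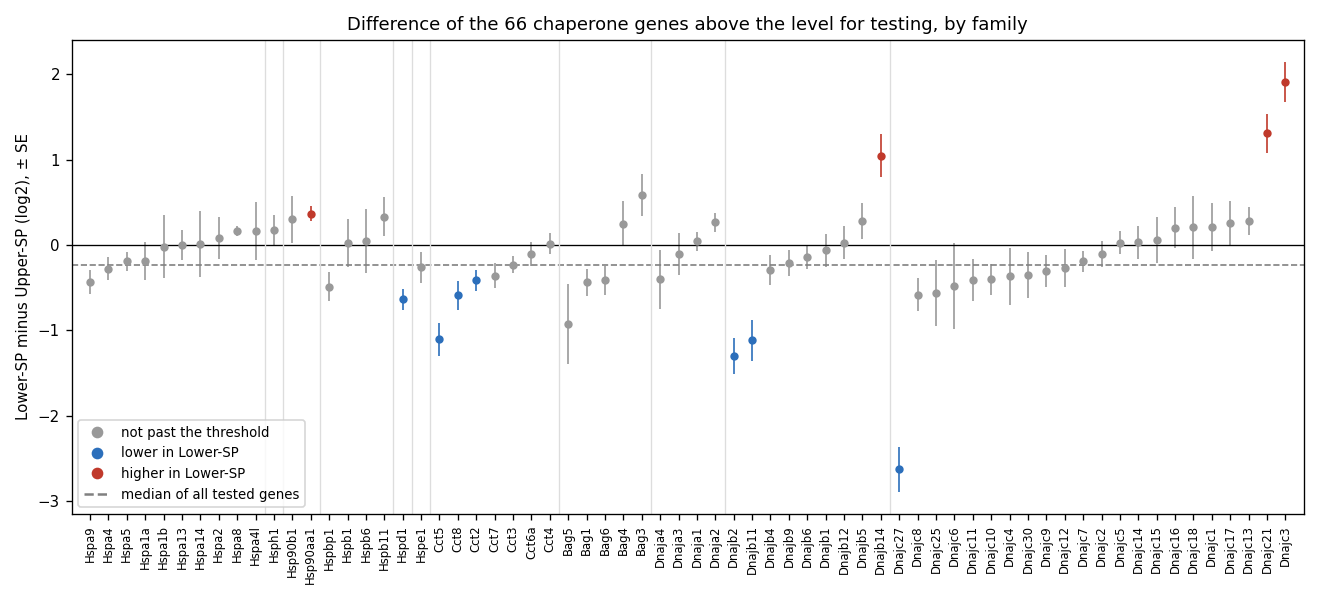
Difference between fractions (Lower-SP minus Upper-SP, log2, vertical axis) for each of the 66 tested chaperone genes, grouped by family along the horizontal axis; bars are the SE from limma and colours mark the 11 genes that passed. Most points lie near 0 or near the dashed median of all tested genes (-0.24), with Dnajc27 lowest at -2.63 and Dnajc3 highest at 1.91.

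The median difference of the chaperone genes was -0.10, beside -0.24 for all genes, and their median absolute difference was 0.27, beside 0.46. Scaling mattered for the sign: with cyclic loess the chaperone median was 0.020 and that of all genes -0.12, and 6 chaperone genes were higher and 5 lower, so that 54.5% of the calls were higher in place of 36.4% (40.2% in place of 25.4% over all genes). Quantile normalization gave the same 6 and 5. Single arrays also moved the counts. Leaving out Upper-SP replicate 1 gave 2 higher and 3 lower, Upper-SP replicate 2 gave 2 and 4, Upper-SP replicate 3 gave 4 and 11, and Lower-SP replicate 2 gave 2 and 5. Without Lower-SP replicates 1 and 2 together 2 were higher and 3 lower. The share called among chaperone genes was not under that of all genes in every analysis: it was 7.58% beside 7.35% without Upper-SP replicate 1, and 10.3% beside 7.24% with no filter on low values. It was 9.09% beside 12.5% without Upper-SP replicate 2, 10.6% beside 14.9% without Lower-SP replicate 2, and 7.58% beside 12.7% without Lower-SP replicates 1 and 2. Dnajc27, Dnajb2, Dnajc3 and Dnajc21 were called in each of the 18 alternative analyses.

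Among the J-proteins, 3 of 35 tested genes were lower, 3 higher and 29 did not pass, with a median difference of -0.11. The shares are 8.57% in each direction, beside 20.7% lower and 7.05% higher of all genes, whose median was -0.24. Dnajc27, a small GTPase of the Rab type that carries a J-domain, had the largest difference of any chaperone gene. It read 4.39, 4.38 and 4.30 in Lower-SP, against 7.13, 7.32 and 6.51 in Upper-SP. All 3 Lower-SP arrays sat just above the level for testing and far under each Upper-SP array. The gene fell by 2.63 (SE 0.27, 6.19-fold, adjusted p = 0.0018), from 6.99 ± 0.42 to 4.36 ± 0.05, and its difference ran from -2.87 to -2.46 over the alternatives. In sorted populations, fewer cells with a transcript and less of it per cell cannot be told apart. The gene's other probe set lay under the level for testing, reading 3.40, 3.43 and 4.33 in Lower-SP and 3.24, 3.29 and 4.10 in Upper-SP, so this result rests on 1 probe set.

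**Figure D2:**
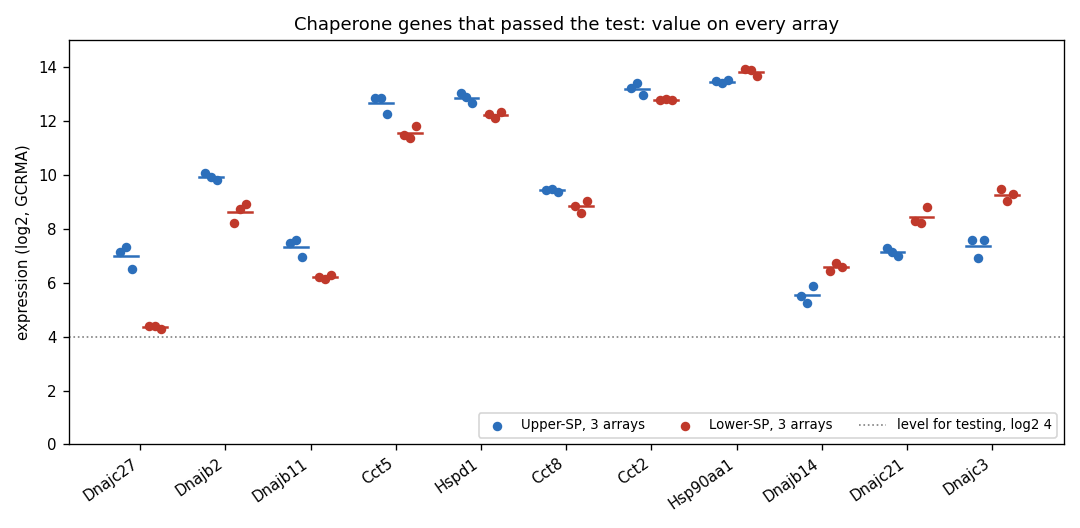
Expression (log2, vertical axis) of the 11 chaperone genes that passed, on each of the 3 Upper-SP arrays (blue) and 3 Lower-SP arrays (red); horizontal bars are group means and the dotted line is the level for testing. In all 11 genes the 3 Lower-SP values lie apart from the 3 Upper-SP values, and Dnajc27 in Lower-SP lies between 4.30 and 4.39. The 11 were picked by the test on these same arrays, so their separation is no further support. The groups do not overlap in 45.7% of all genes.

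Dnajb2, a J-protein that delivers ubiquitinated clients to the proteasome, read 8.21, 8.73 and 8.93 in Lower-SP and 10.07, 9.91 and 9.79 in Upper-SP. Every Lower-SP array was under every Upper-SP array, and the gene fell by 1.30 (SE 0.21, 2.47-fold, adjusted p = 0.0060). Dnajc21, a J-protein of ribosome assembly, went the other way, with 8.28, 8.23 and 8.81 in Lower-SP against 7.28, 7.14 and 6.98. It rose by 1.31 (SE 0.22, 2.47-fold, adjusted p = 0.0069) at its brightest probe set, while its second tested probe set differed by 0.29 (adjusted p = 0.29). Without Lower-SP replicates 1 and 2 the differences were -0.999 for Dnajb2 (adjusted p = 0.041), 1.67 for Dnajc21 (0.025) and -2.69 for Dnajc27 (0.024).

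The other J-proteins of the nucleus and of ribosomes did not pass: the splicing-associated Dnajc8 differed by -0.58 (adjusted p = 0.057), the histone chaperone Dnajc9 by -0.30, the ribosome-associated Dnajc2 by -0.11 and the splicing-linked Dnajc17 by 0.25, although its dimmer probe set was 1.03 higher and passed (adjusted p = 0.049). Of the vesicle J-proteins other than Dnajc27, neither the synaptic vesicle protein Dnajc5 (0.03), the auxilin Dnajc6 (-0.48) nor the endosomal Dnajc13 (0.28) passed. Dnajc6 read 7.49, 7.10 and 5.58 in Lower-SP, so that its SD there (1.01) exceeded the difference. Of the 4 Dnaja genes, which include the main cytosolic partners of HSP70, none passed in limma, 1 with an unadjusted p under 0.05. This was Dnaja2, at 0.26 (11.06 ± 0.03 against 10.80 ± 0.04, adjusted p = 0.10), which was called with cyclic loess, quantile normalization and array weights. Its 3 dimmer probe sets went the other way, by -0.10, -0.58 and -0.715, and did not pass.

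Chaperones of the endoplasmic reticulum (ER) included the most raised gene and differed in direction among themselves. Of 13 listed and tested, 2 were higher and 1 lower (15.4% and 7.69%), with a median of 0.02. Over all genes 7.05% were higher and 20.7% lower, with a median of -0.24. Dnajc3, an ER J-protein known as an inhibitor of the kinases that phosphorylate eIF2-alpha, read 9.48, 9.03 and 9.29 in Lower-SP and 7.57, 6.93 and 7.58 in Upper-SP. Each Lower-SP array was above each Upper-SP array, and the gene rose by 1.91 (SE 0.24, 3.75-fold, adjusted p = 0.0031). Its 2 dimmer probe sets differed by 0.16 (adjusted p = 0.70) and 0.26 (0.33), so the rise was seen at 1 of 3 probe sets. Without Lower-SP replicates 1 and 2 it was 1.93 (adjusted p = 0.032), and as the mean of its 3 probe sets it was 0.78, still called.

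Dnajb11, an ER co-chaperone of the luminal HSP70, moved oppositely, with 6.21, 6.12 and 6.30 in Lower-SP against 7.46, 7.57 and 6.96. All Lower-SP values lay under the Upper-SP values, and the gene fell by 1.12 (SE 0.24, 2.17-fold, adjusted p = 0.014). Its adjusted p was 0.074 when Upper-SP replicate 1 was left out, 0.059 when Upper-SP replicate 2 was, and 0.098 when both Lower-SP replicates 1 and 2 were, so each ended the call, at differences of -1.05, -0.997 and -1.03. Dnajb14, a J-protein of the ER membrane, was tested at 1 probe set only. Its other probe set, too dim to be tested, went the opposite way on average. That probe set read 3.065, 3.22 and 3.13 in Lower-SP and 4.985, 3.16 and 5.36 in Upper-SP. At the tested probe set Dnajb14 rose by 1.05 (SE 0.25, adjusted p = 0.019), with 6.45, 6.74 and 6.58 against 5.51, 5.23 and 5.88. That call too was lost without Upper-SP replicate 1, Upper-SP replicate 2, Lower-SP replicate 2 or Lower-SP replicates 1 and 2 (adjusted p = 0.065 to 0.10).

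The central ER chaperones did not pass. Hspa5, the luminal HSP70 also called BiP, read 13.62, 13.50 and 13.84 in Lower-SP and 13.71, 13.92 and 13.91 in Upper-SP, a difference of -0.19 (SE 0.11, adjusted p = 0.23) with overlapping groups, and its other probe sets gave -0.05 and 0.28, neither passing. Hsp90b1, the ER form of HSP90, read 9.35, 8.81 and 9.56 against 9.04, 9.29 and 8.49 (0.30, adjusted p = 0.43). Dnajb9, a partner of Hspa5 induced by ER stress, differed by -0.21, and the disulfide reductase Dnajc10 by -0.40 (adjusted p = 0.14).

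Several of these genes share a known control element, the ER stress element, which is why the bases before the start of the most raised gene and of Hspa5 are shown, from RefSeq on GRCm38.p6. The element was searched as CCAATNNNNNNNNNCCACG on both strands of windows running from 250 bases before to 50 after each start. Among the 54 chaperone genes found in the promoter table, Dnajc3, Hsp90b1 and Hspa5 hold a match (5.56%), beside 0.137% of all 27025 genes. Of these 3 genes only Dnajc3 passed. The 250 bases before each start follow, with the match in capitals, for Dnajc3 (chr14:118937682-118937931, plus strand) and Hspa5 (chr2:34771840-34772089, plus strand).
Dnajc3: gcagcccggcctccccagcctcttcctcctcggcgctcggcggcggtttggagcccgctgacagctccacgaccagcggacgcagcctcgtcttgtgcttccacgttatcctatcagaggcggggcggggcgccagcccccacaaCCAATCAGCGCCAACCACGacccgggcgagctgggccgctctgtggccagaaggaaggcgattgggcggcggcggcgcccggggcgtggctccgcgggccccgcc
Hspa5: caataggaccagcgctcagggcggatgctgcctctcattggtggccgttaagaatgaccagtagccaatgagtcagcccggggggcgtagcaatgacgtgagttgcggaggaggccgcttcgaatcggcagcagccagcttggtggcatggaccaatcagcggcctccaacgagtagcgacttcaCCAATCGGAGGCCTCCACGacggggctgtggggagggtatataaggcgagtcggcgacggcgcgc

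Of 8 tested mitochondrial chaperones, 1 was lower (12.5%) and 0 higher, beside 20.7% and 7.05% of all genes. Their median difference was -0.36, beside -0.24 for all genes. Hspd1 (HSP60), the chaperonin of the mitochondrial matrix, read 12.26, 12.12 and 12.32 in Lower-SP and 13.04, 12.90 and 12.66 in Upper-SP. The groups did not overlap, and the gene fell by 0.63 (SE 0.12, 1.55-fold, adjusted p = 0.010). Hspe1 (HSP10), the lid of that chaperonin, differed by -0.26 (8.51, 8.65 and 8.87 against 9.07, 8.72 and 9.02, adjusted p = 0.31), within the spread of its arrays. Hspa9, the matrix HSP70, differed by -0.43 (11.56, 11.34 and 11.73 against 11.82, 12.11 and 12.002) and narrowly missed the threshold (adjusted p = 0.051). It was called with 5 of the 18 alternatives. Leaving out Upper-SP replicate 1 (adjusted p = 0.053) or both Lower-SP replicates 1 and 2 (0.11) ended the Hspd1 call.

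Hspd1 and Hspe1 lie head to head and share the bases between their starts, so that stretch is shown with Dnajc27's upstream sequence. The heat shock element, the site of the heat shock factors, was searched on both strands as GAANNTTCNNGAA, and in its shorter form as GAANNTTC, which lies within the longer one. The longer form occurs in 4 of 54 chaperone genes (7.41%: Hspd1, Hspe1, Hsph1 and Dnajb6) and in 0.662% of all genes. The matches of Hspd1 and Hspe1 are the same letters, in the stretch they share. Hspd1 has another annotated start, not shown, whose window holds neither form. The shorter form occurs in 13 of the 54 (24.1%) and in 9.04% of all genes. It occurs in 9 of the 12 genes with a window that were listed as stress-inducible, Dnaja1 among them. Of the 10 genes with a window that passed, Hspd1 holds the longer form, and Hspd1, Cct2 and Dnajc27 the shorter. A match is a description of these letters and not of binding. The sequences are given as the strand of Hspd1 (chr1:55087933-55088147, minus strand, between both starts) and of Dnajc27 (chr12:4082324-4082573, plus strand, the 250 bases before its start), with matches to either form in capitals.
Hspd1: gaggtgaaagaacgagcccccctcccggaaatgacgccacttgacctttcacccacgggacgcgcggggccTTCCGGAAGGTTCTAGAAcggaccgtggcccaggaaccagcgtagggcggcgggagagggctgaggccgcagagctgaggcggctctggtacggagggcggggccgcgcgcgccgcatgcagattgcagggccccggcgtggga
Dnajc27: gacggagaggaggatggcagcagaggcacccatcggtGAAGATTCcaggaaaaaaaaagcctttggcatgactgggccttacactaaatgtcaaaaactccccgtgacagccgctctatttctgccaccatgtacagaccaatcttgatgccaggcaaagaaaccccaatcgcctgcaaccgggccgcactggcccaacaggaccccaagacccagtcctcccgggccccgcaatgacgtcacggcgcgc

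The cytosolic chaperonin CCT, an 8-subunit ring that folds actin and tubulin, had lower values for some subunits. Of its 7 tested Cct genes 3 were lower and none higher in limma (4 with an unadjusted p under 0.05), with a median of -0.36. The 3 are 42.9%, beside 20.7% of all genes, whose median was -0.24. Over all 9460 genes, 3965 had an unadjusted p under 0.05 in limma. Cct5 read 11.50, 11.36 and 11.82 in Lower-SP and 12.87, 12.86 and 12.27 in Upper-SP. Lower-SP replicate 3 and Upper-SP replicate 3 came closest to each other without overlapping, and the gene fell by 1.11 (SE 0.19, 2.15-fold, adjusted p = 0.0074). The call was lost only without Lower-SP replicates 1 and 2 among its alternatives (-0.85, adjusted p = 0.10).

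Cct8 fell by 0.59 (SE 0.17, adjusted p = 0.035), with 8.86, 8.60 and 9.05 against 9.43, 9.47 and 9.38, and Cct2 fell by 0.42 (SE 0.12, adjusted p = 0.037), with 12.78, 12.82 and 12.77 against 13.22, 13.41 and 12.97. Both calls were lost with cyclic loess, with quantile normalization, with no filter and without either of Upper-SP replicates 1 and 2 or Lower-SP replicates 1 and 2, singly and together. The Cct2 call was also lost without Lower-SP replicate 3, with no trend, without probe sets ending in _x_at or _s_at and with the mean of its probe sets. In all, Cct8 was called in 9 and Cct2 in 5 of the 18 alternatives. Cct7 (-0.36), Cct3 (-0.23), Cct6a (-0.10) and Cct4 (0.01) did not pass at their brightest probe sets. The subunit Tcp1, whose symbol lies outside the naming rule, fell by 0.87 (SE 0.18, adjusted p = 0.012).

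Probe sets of one subunit differed. Those of Cct4 read 0.01 and 0.35 at names ending in _x_at, which may match several related transcripts, neither passing, and -0.82 (adjusted p = 0.0058) at the remaining one. Cct3 was called lower at its 2 dimmest probe sets (-0.63 and -1.48) and not at the brighter 2 (-0.23 and -0.26). The one at -1.48 read 3.89, 4.13 and 3.59 in Lower-SP, a mean of 3.87 and so under the level for testing. It was tested through its Upper-SP arrays (5.655, 5.17 and 5.22). Cct2 gave -0.42 and -0.82, both called, and 0.20, not called. Cct4's sign at its brightest probe set turned with centring (-0.028).

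**Figure D3:**
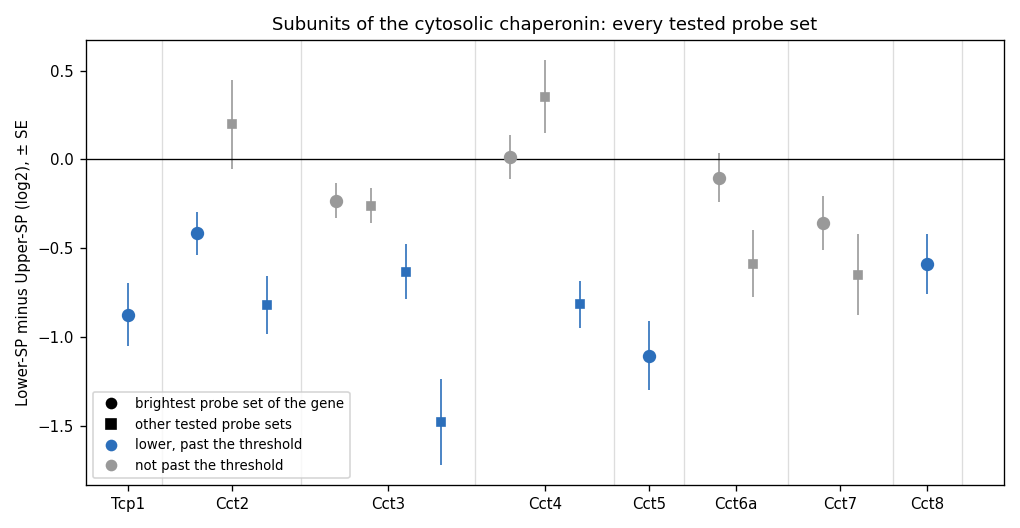
Difference between fractions (log2, vertical axis, bars are the SE) at each tested probe set of the 8 CCT subunits, with circles for the brightest probe set of a gene and squares for the others. Blue points, which passed, lie between -0.42 and -1.48 and occur in 6 of the 8 subunits, Cct6a and Cct7 having none. The point at -1.48, of Cct3, has a Lower-SP mean (3.87) under the level for testing.

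HSP70 genes did not differ at the threshold: of 10 tested none passed in limma, 2 with an unadjusted p under 0.05, and their median was -0.01. Hspa8, the constitutive cytosolic HSP70, read 15.73, 15.72 and 15.68 in Lower-SP and 15.48, 15.59 and 15.58 in Upper-SP. Each Lower-SP value was above each Upper-SP value, but by little (0.16, SE 0.06, adjusted p = 0.080). The difference passed with cyclic loess, with quantile normalization and with array weights, whereas a dimmer Hspa8 probe set was lower and passed (-0.66, adjusted p = 0.012). Both have names ending in _x_at. Hspa1a and Hspa1b, near-identical stress-inducible copies whose signals the array may not separate, read 9.17 ± 0.37 against 9.36 ± 0.21 and 9.21 ± 0.44 against 9.23 ± 0.71.

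Hspa4, a nucleotide exchange factor of the HSP110 type, read 13.13 ± 0.13 against 13.41 ± 0.24 (adjusted p = 0.15), and the ER-anchored Hspa13 8.58 ± 0.23 against 8.59 ± 0.03. Hspa4l, a relative of Hspa4, did not pass at 4 of its 5 probe sets (-0.40 to 0.16) and was called 1.93 higher at the remaining one (adjusted p = 0.0032). Hsph1 (HSP110), which frees protein aggregates together with HSP70, read 9.64, 9.94 and 10.24 against 9.82, 9.72 and 9.77 (0.18, adjusted p = 0.48).

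Hsp90aa1, the stress-inducible cytosolic HSP90, was the stress-inducible gene called higher. It read 13.91, 13.90 and 13.69 in Lower-SP and 13.47, 13.41 and 13.51 in Upper-SP, without overlap, and rose by 0.37 (SE 0.09, 1.29-fold, adjusted p = 0.022). Its other probe sets differed by 0.08 and 0.41 and did not pass, and the call was kept in 10 of 18 alternatives. Without Lower-SP replicates 1 and 2 the difference was 0.22 (adjusted p = 0.25); the call was also lost without Lower-SP replicate 1, Lower-SP replicate 2, Upper-SP replicate 1 or Upper-SP replicate 2, each alone (adjusted p = 0.068 to 0.082). Hsp90ab1 was not analysed here.

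The genes listed as stress-inducible had a median difference of 0.00017, beside -0.24 for all genes. Hspa8 and Dnaja1, described here as constitutive, were counted in that list, as were Hspa4l and Cct2. Of 14 tested 1 was higher (Hsp90aa1) and 2 lower (Hspd1 and Cct2). These are 7.14% and 14.3%, beside 7.05% and 20.7% of all genes. Dnajb1 (HSP40), the inducible partner of HSP70, read 12.11, 11.998 and 12.78 in Lower-SP and 12.36, 12.34 and 12.37 in Upper-SP (-0.06, adjusted p = 0.84). Its Lower-SP arrays lay on both sides of the closely spaced Upper-SP arrays. Dnaja1, its constitutive relative, differed by 0.04 (adjusted p = 0.79), and by 0.61 and -0.26 at its other probe sets, which did not pass either. Hspb1 (HSP27), a small heat shock protein, read 5.40 ± 0.20 against 5.37 ± 0.43. Dnajb1 and Hspb1 changed sign with scaling, Dnajb1 to 0.10 with quantile normalization and Hspb1 to -0.017 with centring.

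The 5 tested BAG genes, which release clients from HSP70, gave no call in limma, 3 with an unadjusted p under 0.05. Bag3, the partner of HSP70 in stress-induced autophagy, read 6.88, 6.49 and 6.96 in Lower-SP and 6.28, 6.37 and 5.92 in Upper-SP. The groups did not overlap, and the difference of 0.59 (SE 0.24) had an adjusted p of 0.11. Bag1 differed by -0.44 (8.76 ± 0.15 against 9.19 ± 0.11, adjusted p = 0.078), also without overlap. Bag5 read 7.58, 7.42 and 5.83 in Lower-SP, so its difference of -0.92 was smaller than the SD of 0.97 there. Of the genes whose symbols start with Hspb, the exchange factor Hspbp1 (-0.49, adjusted p = 0.069) is not itself a small heat shock protein.

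Many chaperone genes have several probe sets, and these often disagreed. Several tested probe sets were present for 37 genes: in 18 of these the differences had both signs, and in 11 some probe sets were called and others not. Of the 11, 1 gene, Dnajc1, was called in both directions. Dnajc1, an ER-membrane J-protein, differed by 0.21 and 0.16 at its 2 probe sets annotated to a RefSeq mRNA, neither passing. It was called 4.12 and 3.85 higher at 2 others, whose Upper-SP means (3.64 and 4.396) lay near the level for testing, and 1.69 lower at another. Dnajb6, an aggregation-suppressing J-protein, was 1.40 lower at 1 of 4 probe sets (adjusted p = 0.017), with -0.14 at the brightest.

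A RefSeq mRNA is the annotated source of 34 chaperone probe sets, of which 6 passed, all as lower (median -0.22). Of the 96 annotated to other sequences or to none, 8 were higher and 8 lower (median -0.01). Over all single-symbol probe sets, 97 of 2687 of the first kind were higher and 709 lower (median -0.38). For the second kind, 1329 of 13367 were higher and 2237 lower (median -0.13). Among the genes called lower, Dnajc27, Dnajb11, Cct2 and Hspd1 were read through probe sets of the second kind. So were all 4 genes called higher. Whether the kind of probe set plays a part in these rises was not tested.

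**Figure D4:**
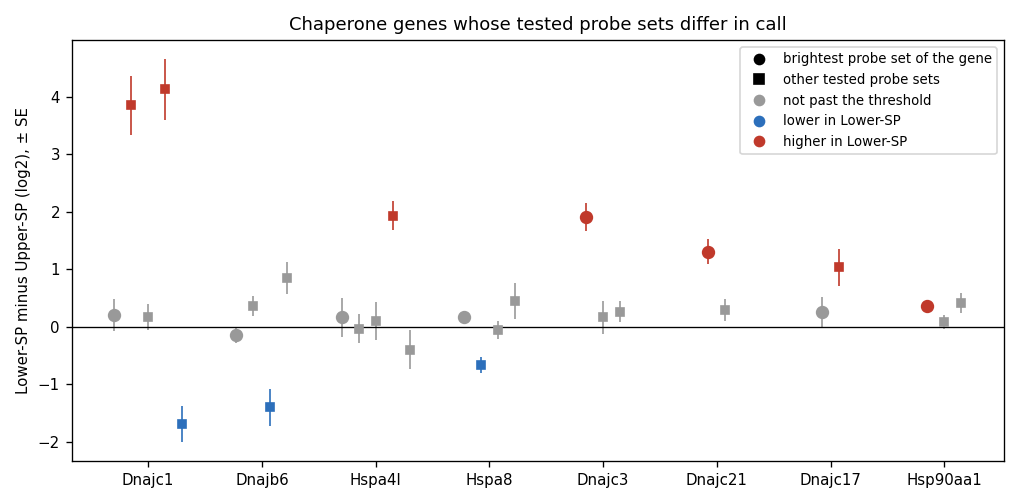
Difference between fractions (log2, vertical axis, bars are the SE) at each tested probe set of 8 chaperone genes whose probe sets differ in call, picked after their values were seen; circles mark the brightest probe set. Dnajc1 spans -1.69 to 4.12, and Dnajc3 (1.91) and Dnajc21 (1.31) passed only at the brightest.

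The partners of these chaperones were read through 5 lists of 93 annotated genes outside the naming rule, of which 87 were tested. Of the 87, 22 were lower and 4 higher (25.3% and 4.60%), with a median of -0.32, beside 20.7% lower, 7.05% higher and a median of -0.24 for all genes. Leaving out Upper-SP replicate 1 reduced these to 2 lower and 0 higher, Upper-SP replicate 2 to 6 and 2, Lower-SP replicate 1 to 12 and 3, Lower-SP replicate 2 to 11 and 2, and both of these Lower-SP arrays to 7 and 0. Over all 9460 genes the same omissions left 425 lower and 270 higher, 798 and 387, 1230 and 467, 978 and 429, and 788 and 409.

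Of 25 tested co-chaperones of HSP70 and HSP90, 5 were lower and 1 higher (20% and 4%, beside 20.7% and 7.05% of all genes). Cdc37, which loads kinases onto HSP90, fell by 1.10 (SE 0.24, adjusted p = 0.015), Stip1, which links HSP70 to HSP90, by 1.01 (SE 0.25, adjusted p = 0.022), and Tomm34, which escorts mitochondrial precursors, by 0.73 (SE 0.23, adjusted p = 0.046). The immunophilin Fkbp4 was called in opposite directions by its 2 probe sets (-1.005 and 1.12). Among 19 prefoldin and chaperonin partners 5 were lower and 0 higher in limma (8 with an unadjusted p under 0.05 in either direction). The 5 are 26.3%, beside 20.7% of all genes. They include the tubulin cofactor Tbce (-1.51), the prefoldin-like Pdrg1 (-0.91), the prefoldin subunit Pfdn5 (-0.87) and Tcp1.

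Of 13 mitochondrial chaperones and proteases 3 were lower and 1 higher (23.1% and 7.69%, beside 20.7% and 7.05% of all genes). Hscb, the J-protein of iron-sulfur cluster assembly, read 5.47, 4.79 and 3.14 in Lower-SP and 6.99, 7.06 and 6.90 in Upper-SP. It fell by 2.52 (SE 0.53, 5.75-fold, adjusted p = 0.013). Without Lower-SP replicates 1 and 2 it fell by 3.85. That value rests on Lower-SP replicate 3 alone, where Hscb lay under the level for testing. The proteases Spg7 (-1.19) and Lonp1 (-0.79) fell, and Clpx, the unfolding subunit of the ClpXP protease, rose by 1.22 (SE 0.26, adjusted p = 0.014), with 1.03 at its other probe set (adjusted p = 0.096).

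The list of heat shock factors and regulators had 6 tested genes, all of them regulators. The heat shock factors Hsf1, Hsf2, Hsf4 and Hsf5 were not among the tested genes. Of the 6, 3 were lower (50%, beside 20.7% of all genes). Hsbp1, an inhibitor of heat shock factor, differed by -1.38 (SE 0.35, adjusted p = 0.023, with -1.29 at its other probe set, also called). Hsf2bp differed by -0.81 and the unfolding ATPase Vcp by -0.39 (0.13 at another probe set, not called). Of 24 ER folding and unfolded protein response genes 6 were lower and 2 higher (25% and 8.33%, beside 20.7% and 7.05% of all genes). Eif2ak3, the ER stress kinase PERK, rose by 1.60 (SE 0.36, adjusted p = 0.016), while the stress-induced genes Ddit3 (-0.79), Herpud1 (-0.98) and Pdia6 (-0.79) fell. Of the partner genes named here, Hscb, Hsbp1, Spg7, Lonp1 and Tomm34 also passed without Lower-SP replicates 1 and 2, which leaves only Lower-SP replicate 3. Without Upper-SP replicate 1 only Pdrg1 and Ddit3 did.

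**Figure D5:**
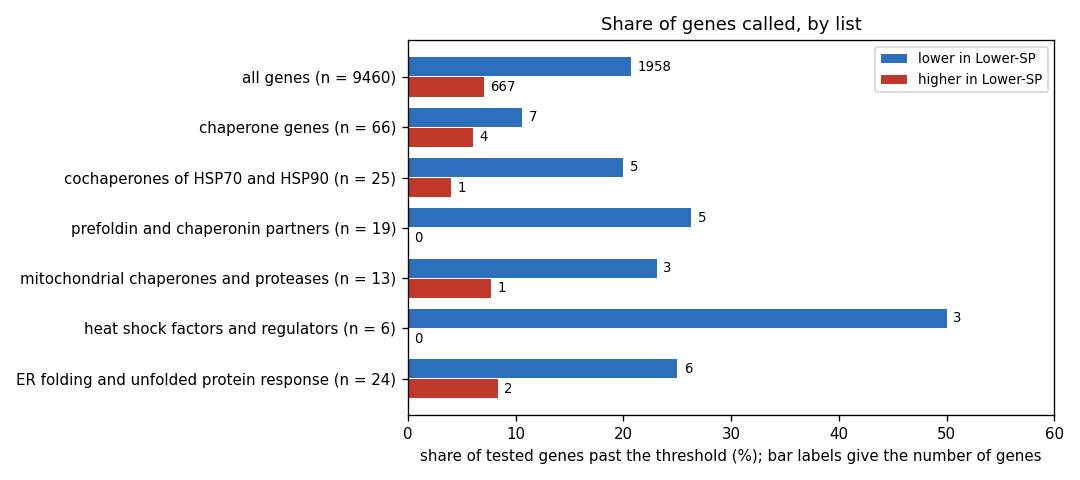
Share of tested genes that passed (percent, horizontal axis) as lower (blue) or higher (red) in Lower-SP, for all 9460 genes, the 66 chaperone genes and the 5 lists of partner genes; numbers beside the bars count genes. The chaperone genes stand at 10.6% lower and 6.06% higher, all genes at 20.7% and 7.05%, and the small lists rest on 6 to 25 genes.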

How the data were processed

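Expression was deposited as log2 values for 45101 probe sets on 6 Affymetrix arrays. GCOS 1.0 and GCRMA are listed, per the submitters' processing notes, with no settings; GCRMA corrects background by probe sequence, normalizes between arrays and combines probes. GCRMA compresses signals near background, so differences of dim genes can be understated. The genome build was not stated in any label used.

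After 64 control probe sets were left out, 34945 carried 1 gene symbol in the array annotation, 932 several and 9160 none, and 34741 were matched by Entrez ID to RefSeq records, with 0 symbols changed. Probe sets above log2 4 on at least 3 of 6 arrays were fitted with limma 3.58.1 in R 4.3.3 (lmFit and trended eBayes; two-sided; 4 residual and 3.80 prior degrees of freedom), with no replicate block. By the lowest of their 3 highest arrays, the chaperone probe sets nearest this limit were of Hspb6 (4.26, inside) and Dnajc10 (3.93, outside). On simulated data of 19613 probe sets, 100 were changed by log2 1 and 100 by log2 2. Of these, 20% and 75% were recovered, with 4.04% false calls. In the data 28.1% of tested probe sets were called, far more than were changed in the simulation. The adjustment for multiple testing depends on that number, so these rates need not hold for the data.

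Named are all called chaperone genes, a fixed set of main chaperones, and up to 4 called partner genes of each list with the largest difference; the other chaperone genes, the genes plotted for disagreeing probe sets and the 4 printed sequences were chosen after their values were seen. The members, lists, tests and alternatives were chosen with earlier results of these data known. Promoter windows, 300 bases around RefSeq starts, covered 54 of the 66 genes.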

Additional observations from a re-analysis of the deposited data

How the results depend on the processing

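Across 18 alternatives Dnajc27, Dnajb2, Dnajc3 and Dnajc21 kept their calls. With array weights 8 chaperone genes were higher and 24 lower (median -0.23) and 10 and 43 partner genes, on 55.7% of all genes called. With no filter the chaperone median was 0.011 and 2 and 8 partner genes were called higher and lower. With no trend 2 partner genes were higher. The chaperone median was 0.019 with quantile normalization and 0.020 with cyclic loess. With Lower-SP replicates 1 and 2 left out, a fit that assumes the lone Lower-SP array to vary like the Upper-SP arrays, 2 and 3 chaperone genes and 0 and 7 partner genes were called. Leaving out 1 array at a time gave 2 to 4 chaperone genes higher, 3 to 11 lower and a median of -0.21 to -0.090, and 0 to 5 partner genes higher and 2 to 28 lower. The cause of these changes was not tested. The fits with arrays left out also hold fewer arrays, which cannot be told apart there from which array was left out.

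Signs turned for genes that were not called, Cct2 and Fkbp4 excepted. With quantile normalization Cct6a was 0.059, Dnajb1 0.10 and Hspa1b 0.12; with cyclic loess Cct6a 0.093, Dnajb1 0.14, Hspa1b 0.16 and Hspa5 0.0041; with centring Cct4 -0.028 and Hspb1 -0.017. With array weights Cct6a was 0.088, Hspa1b 0.76 and Hspb1 -0.34. Without _x_at and _s_at probe sets Cct2 was 0.20, Cct4 -0.82 (called) and Hspa8 -0.061, and with the mean of a gene's probe sets Cct4 was -0.15, Hspa5 0.012, Hspa8 -0.029 and Fkbp4 0.057. Without Lower-SP replicates 1 and 2, Cct4 was -0.059, Dnaja1 -0.097, Dnajb1 0.42 and Hspa1a 0.22. With 1 array left out the ranges were -0.12 to 0.0835 for Cct4, -0.22 to 0.027 for Cct6a, -0.014 to 0.115 for Dnaja1, -0.30 to 0.088 for Dnajb1, -0.43 to 0.23 for Hspa1b and -0.21 to 0.22 for Hspb1.

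Same-numbered arrays of the 2 fractions did not deviate together (correlations of -0.05, -0.03 and -0.02 across probe sets), and 0 of the 3 correlated best with its own number. With the replicate number as a block 3 chaperone genes were higher and 5 lower, Cct2, Cct8 and Hsp90aa1 no longer being called, and 13 partner genes were lower.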

Other observations

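Of the 87 annotated chaperone genes, 21 had no probe set above the level for testing. They include the testis-expressed Hspa1l, Dnajb3, Dnajb7, Dnajb8, Dnajb13, Cct6b and Dnajc5g, each under log2 3 on every array, and the muscle-associated small heat shock proteins Hspb2, Hspb3 and Hspb7 (highest 2.36, 2.17 and 2.52). Hspb8 stayed at or under 2.95 and the endothelial Hspa12b at or under 3.73. Bag2, an inhibitor of the ubiquitin ligase CHIP, read 4.39 and 4.91 on Upper-SP replicates 1 and 2 and at most 3.03 on the other 4 arrays.

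Dnajc19, a J-protein of the mitochondrial import motor, is annotated on this array only together with its pseudogene and was therefore not a member. Its 2 probe sets above the level for testing read 6.90, 6.36 and 5.74 in Lower-SP against 6.19, 6.46 and 5.91 in Upper-SP, and 5.96, 6.91 and 5.60 against 7.14, 7.003 and 7.47.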
